A study of Homo sapiens with 4 samples.

Results

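The 6 type IV collagen genes, COL4A1 to COL4A6, were followed in ACHN cells in which PRR11 had been silenced. They were chosen by name, out of 36359 genes in the count table, after an earlier look at these libraries had shown COL4A1 and COL4A4 among the genes that changed. The contrast of siPRR11 with siNC is therefore given for them as a description, with no p-value for any of them. Calls from the fit over all genes are only counted, beside the share of all genes called. ACHN is an established human renal cell carcinoma (RCC) line, grown in MEM with fetal bovine serum. Both groups were ACHN cells transfected with Lipofectamine, one with a control siRNA (siNC, 2 libraries) and one with siRNA against PRR11 (siPRR11, 2 libraries). Neither the time after transfection nor the origin of the replicates from separate cultures is stated in the sources used here, so that the spread between libraries may be technical. The comparison asks which mRNAs change when PRR11 mRNA is lowered, though not removed, in these cells.

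Type IV collagen is the collagen of basement membranes, the thin sheets on which epithelial and endothelial cells rest. Its chains carry long stretches in which glycine recurs at a fixed interval. They wind into triple-helical trimers inside the cell, are secreted, and join at their ends into a network to which laminins, nidogen and perlecan bind. COL4A1 and COL4A2 make up the trimer of nearly all basement membranes, with a pair of COL4A1 chains for each COL4A2 chain. COL4A3, COL4A4 and COL4A5 form the trimer of the glomerular basement membrane of the kidney, whose loss underlies Alport syndrome, and COL4A5 with COL4A6 forms a trimer of epithelial basement membranes such as that of Bowman's capsule. The genes lie in 3 pairs. In each pair the genes start side by side and are read in opposite directions, COL4A1 with COL4A2 on chromosome 13, COL4A4 with COL4A3 on chromosome 2 and COL4A6 with COL4A5 on chromosome X.

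The stretch between the starts of COL4A1 and COL4A2 is shown because both chains are read from it, and because their values differed most after silencing. In RefSeq (GRCh38.p14), where all 6 genes were matched at 7 starts, it holds 126 bases. Capitals mark CCAAT and GGGCGG, the motifs searched on both strands besides TATAAA:
COL4A1-COL4A2 gap, chr13:110307158-110307283, plus strand: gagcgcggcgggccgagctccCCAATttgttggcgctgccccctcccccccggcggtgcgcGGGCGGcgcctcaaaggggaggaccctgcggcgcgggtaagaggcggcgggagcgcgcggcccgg
The gap is 80.2% G and C and holds 1 CCAAT, 1 GGGCGG and no TATAAA, and the motifs do not overlap. Of 35116 RefSeq promoters, 21.1% hold CCAAT, 34.6% hold GGGCGG and 5.87% hold TATAAA in the 126 bases before the start. The starts of COL4A4 and COL4A3 are 418 bases apart. Those of COL4A5 and COL4A6 are 379 or 1415 bases apart, depending on the start of COL4A6. For COL4A4 the values rest on 1 RefSeq start. In GENCODE release 44 the gene reaches to 227164453, nearer to COL4A3, so that most of the stretch printed next lies within it there. The 250 bases before the RefSeq start of COL4A4, the chain with the largest fold difference, hold none of these motifs:
COL4A4 upstream, chr2:227164206-227164455, minus strand: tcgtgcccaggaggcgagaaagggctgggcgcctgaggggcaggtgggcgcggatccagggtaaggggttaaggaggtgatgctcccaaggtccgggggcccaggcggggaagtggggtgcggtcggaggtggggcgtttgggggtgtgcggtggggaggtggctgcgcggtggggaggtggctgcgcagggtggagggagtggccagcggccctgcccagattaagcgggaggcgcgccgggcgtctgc
Over the same 250 bases, CCAAT is present in 32.0%, GGGCGG in 42.6% and TATAAA in 10.7% of the promoters. G and C make up 77.6% of the bases before COL4A1 and 78.8% before COL4A2, 72.8% before COL4A4 and 66.4% before COL4A3, but 51.2% before COL4A5 and 44% or 48.8% before COL4A6, against a median of 58.0% over all promoters. The COL4A1 and COL4A2 pair thus stands at the GC-rich end of the range and the COL4A5 and COL4A6 pair below its middle.

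Each of the siPRR11 duplexes named in the paper's methods has a guide strand, and bases 2 to 8 of a guide, its seed, can pair with other mRNAs. The bases that pair with the seed are AAGGAGA for duplex 1 and GAAAGTT for duplex 2, and the paper's text does not say which duplex the sequenced cells received. In the canonical transcripts of GENCODE release 44, COL4A1 and COL4A4 each have 1 match to the seed of duplex 1 in the 3' untranslated region, and COL4A2, COL4A3, COL4A5 and COL4A6 have none. None of the 6 has a match for duplex 2. This search was added after the values had been seen. The sites are printed with 10 bases on each side and the match in capitals:
COL4A1 site, chr13:110150171-110150197, minus strand: ctacttgctgAAGGAGAaaaagacagc
COL4A4 site, chr2:227006711-227006737, minus strand: gttcctttcaAAGGAGAatgaatcatg
At both sites 8 bases in a row match duplex 1. Over their 19 bases, the transcripts of the 6 genes had at least 6 mismatches to duplex 1 and at least 5 to duplex 2. Of 13515 tested genes whose 3' untranslated region has 50 bases or more, 18.4% hold the match for duplex 1 and 15.6% that for duplex 2. Among the 2490 genes with the match for duplex 1, 17.4% were called lower and 8.35% higher in siPRR11 cells (edgeR quasi-likelihood, adjusted p under 0.05). Among the 11025 genes without it these shares were 11% and 9.87%. For duplex 2, 12.9% of genes with the match and 12% of those without were called lower. Median log2 fold changes were -0.066 for genes with the match for duplex 1 and -0.0009 for those without it. Genes with and without a match were not matched for the length of this region or for level. The match and these traits thus cannot be told apart in these shares. The part of these matches in the collagen values was not tested.

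Counted reads came to 83068637 and 59003839 in siNC and to 92612749 and 84279389 in siPRR11 libraries, and TMM factors lay between 0.983 and 1.018. PRR11 itself was at 41.3 and 40.4 CPM in siNC cells and at 15.3 and 14.0 CPM in siPRR11 cells, a log2 fold change of -1.48 (edgeR adjusted p = 3.35e-06), in the direction its labels give. Of 8 genes of renal epithelium and RCC, 7 were above 1 RPKM in every library, among them PAX8 and KRT8, while CDH6 was at 0.00523 RPKM or less. All 5 endothelial genes and 4 of 5 fibroblast genes (COL1A2, COL3A1, DCN and LUM) were below 0.1 RPKM in every library, and COL1A1 lay between 4.30 and 9.97 RPKM. The fibroblast genes summed to between 4.38 and 5.04 RPKM in siNC and to between 7.94 and 10.1 RPKM in siPRR11. Nearly all of this sum was COL1A1 in every library. The 5 leukocyte genes summed to less than 1 RPKM in each library, and the podocyte genes NPHS1 and WT1 were below 0.1 RPKM while PODXL and SYNPO were above 1 RPKM in every library. In bulk RNA, fewer cells with a transcript and less of it per cell cannot be told apart.

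In control ACHN cells the COL4A1 and COL4A2 mRNAs were abundant and the other 4 were scarce. Levels are compared here in RPKM, read counts scaled by exonic length and by the counted reads of the library. COL4A2 ranked number 90 of all 36359 genes in siNC cells, at 422.5 and 415.9 RPKM. COL4A1 ranked number 105, at 374 and 324.4 RPKM. COL4A5 followed with 2.81 and 2.93 RPKM, so that COL4A1 stood 121.7-fold above it. COL4A4 was at 1.86 and 1.69 RPKM, COL4A3 at 1.19 and 1.13 RPKM and COL4A6 at 0.493 and 0.480 RPKM. No neighbours in this order overlapped between the libraries of the group. COL4A1 and COL4A2 together gave between 99.17% and 99.21% of the summed RPKM of the family in each of the 4 libraries. The ACHN cells thus held chiefly mRNA for the chains of the common trimer, with the other 4 chains at or below about 3 RPKM.

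**Figure D1:**
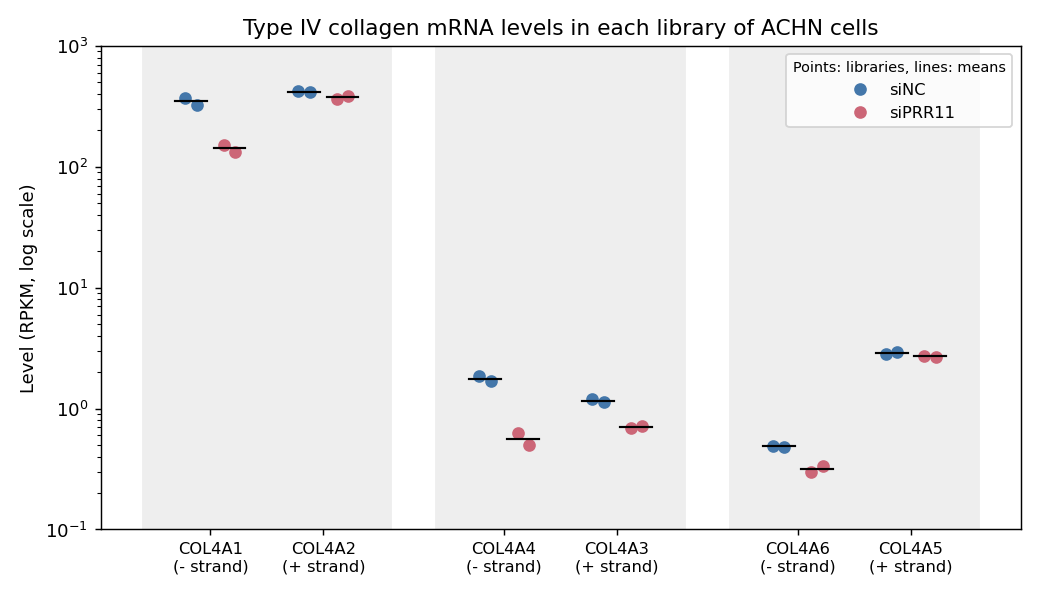
Level of each type IV collagen mRNA in every library (RPKM, log scale), with the genes of a head-to-head pair side by side on a grey field. Points are libraries (siNC blue, siPRR11 red) and lines are means; COL4A1 and COL4A2 lie above 100 RPKM and the other chains below 3 RPKM, and the siPRR11 points lie below the siNC points for all 6 genes, by little for COL4A2 and COL4A5.

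All 6 genes had lower fitted levels in siPRR11 than in siNC cells, and for all 6 the groups did not overlap, which held in this direction for 29.3% of the 21630 genes tested. By quasi-likelihood testing in edgeR, 4 of the 6 (COL4A1, COL4A3, COL4A4 and COL4A6) had an adjusted p-value under 0.05, all lower in siPRR11, against 9.14% of all genes tested that were called lower and 7.61% that were called higher. The median log2 fold change was -0.73 for the family and 0.0022 for all genes tested. Since the genes were chosen with this contrast in view, these counts describe the family and support nothing further.

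COL4A1 had the largest absolute difference. It lies on the minus strand of chromosome 13 (GRCh38, 110148963 to 110307149 in the deposited annotation), with 54 separate exonic stretches. In siNC cells it was at 374 and 324.4 RPKM, and in siPRR11 cells at 153 and 133 RPKM. Both siPRR11 libraries thus lay far below both siNC libraries. In CPM (counts per library size after TMM scaling) the mean went from 2908 ± 289.6 to 1153 ± 109 (SD, n = 2 each). Of the control level, 39.6% was left, and the log2 fold change was -1.34 (standard error, SE, 0.0913). The share of all counted reads went from 0.286% to 0.117%, and the rank by RPKM from number 105 to number 273. Of the 428 tested genes with at least 100 RPKM in siNC cells, a set chosen after the values had been seen, COL4A1 had the largest fall. EPDR1 and PDAP1 were the other genes of this set with a log2 fold change of -1 or less.

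COL4A2, which starts 126 bases from COL4A1 and runs the other way on the plus strand (110305812 to 110513027), differed little between the groups. It was at 422.5 and 415.9 RPKM in siNC cells and at 366.7 and 388.2 RPKM in siPRR11 cells. The groups did not overlap, but 87.1% of the control level was left in CPM. Its log2 fold change was -0.20 (SE 0.0710), and it ranked number 110 by fall among the 428 abundant genes. Antisense genes, COL4A2-AS1 and COL4A2-AS2, cover 1.09% of its exonic bases, whose reads cannot be assigned if counting ignored strand. The deposited model of COL4A2 also has a first exon that lies within the span of COL4A1, without touching its exons.

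**Figure D2:**
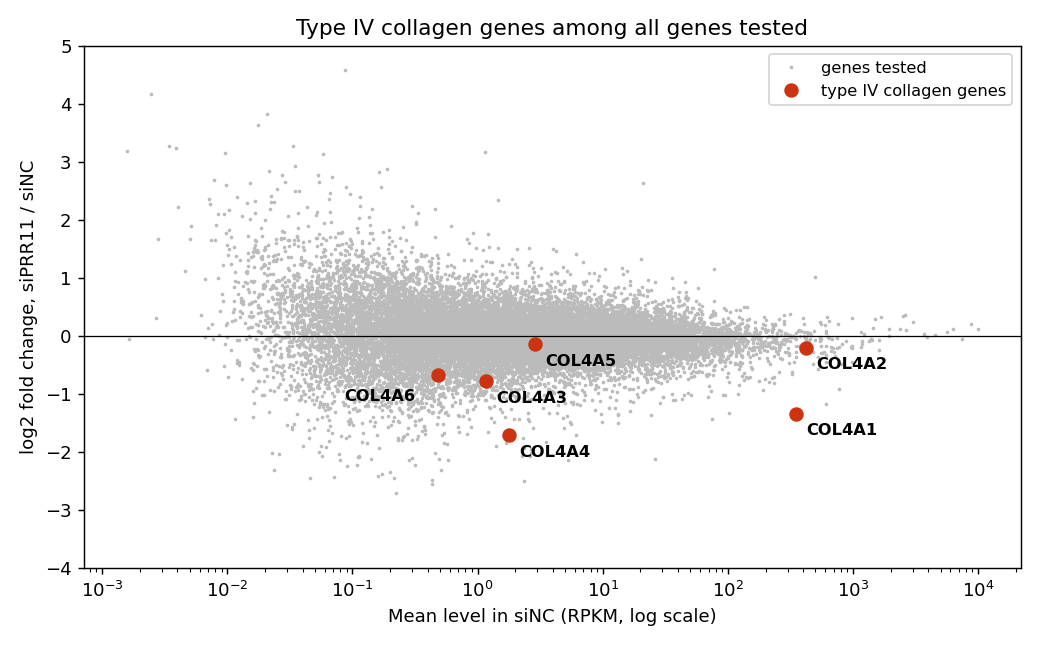
log2 fold change of siPRR11 over siNC (vertical axis) against the mean siNC level in RPKM (horizontal axis, log scale) for the genes tested, in grey, with the 6 type IV collagen genes in red. COL4A1, at -1.34, sits lowest of the genes above 100 RPKM, while COL4A2, at a like level, sits at -0.20.

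COL4A4 had the largest fold difference of the family. It lies on the minus strand of chromosome 2 (227002711 to 227164113) and encodes a chain of the glomerular trimer. It was at 1.86 and 1.69 RPKM in siNC cells and at 0.624 and 0.496 RPKM in siPRR11 cells, from 1526, 986, 572 and 414 reads. The siPRR11 values were all less than the lower siNC value, and 30.6% of the control level was left in CPM. The log2 fold change was -1.71 (SE 0.127).

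COL4A3, its neighbour on the plus strand (227164565 to 227314792), encodes the chain that carries the antigen of Goodpasture disease. It was at 1.19 and 1.13 RPKM in siNC cells and at 0.686 and 0.719 RPKM in siPRR11 cells, so that the groups were again apart. Of the control level, 58.5% was left, with a log2 fold change of -0.77 (SE 0.113). A gene on the other strand covers 1.31% of its exonic bases.

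COL4A6, on the minus strand of chromosome X (108155607 to 108439497), was the scarcest chain. It was at 0.493 and 0.480 RPKM in siNC cells and at 0.298 and 0.332 RPKM in siPRR11 cells, from 380, 263, 256 and 260 reads. The log2 fold change was -0.68 (SE 0.150), with 62.7% of the control level left. COL4A5, the X-linked Alport gene, lies beside it on the plus strand (108439844 to 108697545) and was at 2.81 and 2.93 RPKM in siNC cells and at 2.74 and 2.66 RPKM in siPRR11 cells. These ranges lay close together, and the log2 fold change was -0.13 (SE 0.0881).

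**Figure D3:**
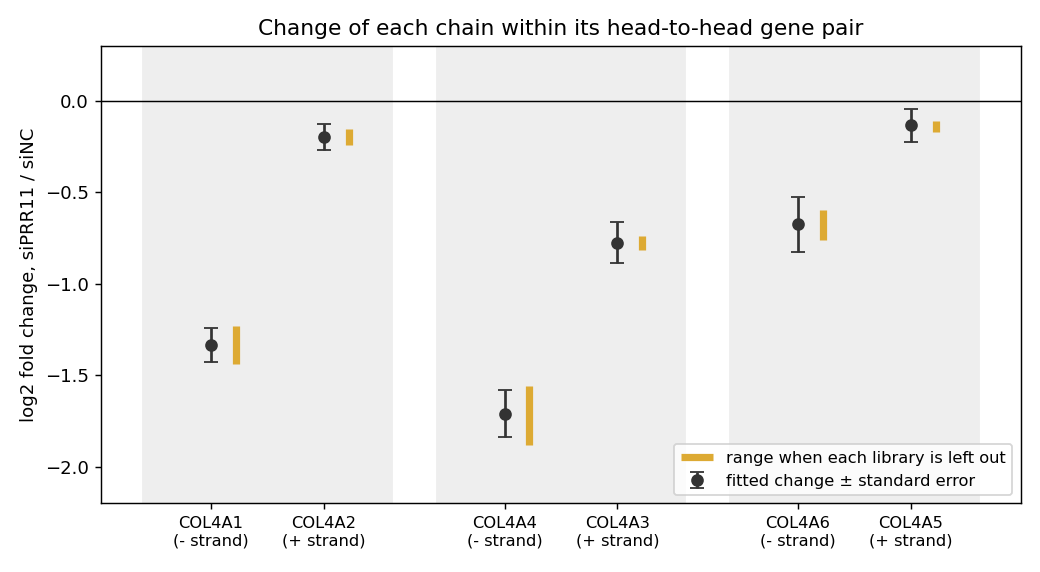
log2 fold change of siPRR11 over siNC for each chain, with the genes of a pair on one grey field and the strand of each below its name. Black points with bars are the fitted change and its standard error, and yellow bars span the values when each library is left out; in each pair the gene on the minus strand lies lower.

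In each of the 3 pairs the gene on the minus strand had the larger fall in fitted value. The log2 fold changes within a pair differed by 1.14 for COL4A2 and COL4A1, by 0.93 for COL4A3 and COL4A4 and by 0.54 for COL4A5 and COL4A6. The ratio of RPKM within a library does not depend on how libraries are scaled. COL4A2 to COL4A1 stood at 1.13 and 1.28 in siNC and at 2.40 and 2.91 in siPRR11 libraries, so that the mRNA of the chain used once per trimer exceeded that of the chain used in pairs by more after silencing. COL4A3 to COL4A4 went from 0.643 and 0.670 to 1.10 and 1.45, and the order of these chains in RPKM was thus exchanged. In siPRR11 library 1, COL4A3 had 580 and COL4A4 572 reads. The ratio of 1.10 there rests mostly on their exonic lengths, 9124 and 9895 bases. COL4A5 to COL4A6 went from 5.70 and 6.10 to 9.208 and 8.004. For each pair, both siPRR11 ratios were above both siNC ratios.

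**Figure D4:**
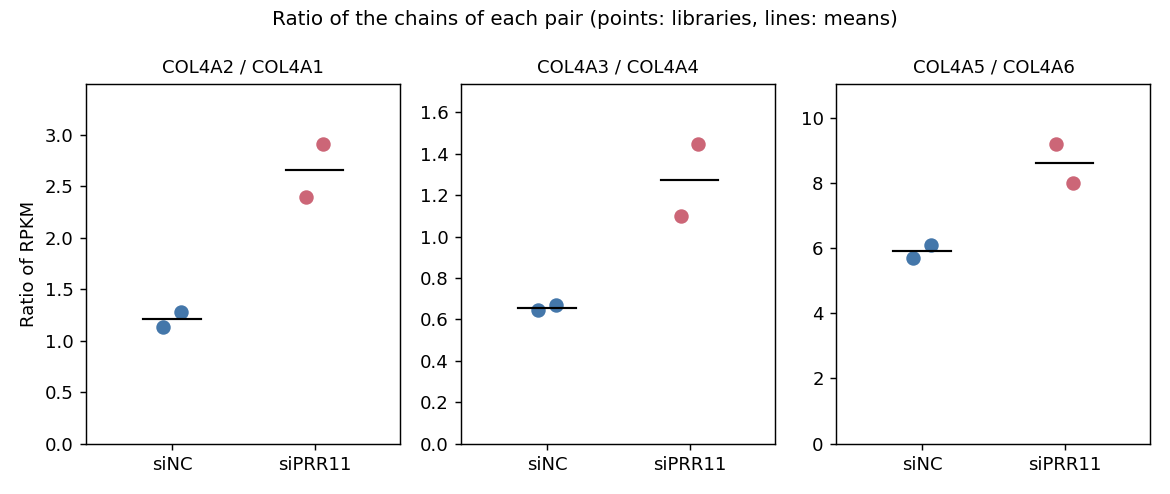
Ratio of RPKM of the plus-strand gene to the minus-strand gene of each pair in every library (points), with the mean of each group (lines); each panel has its own axis from 0. The ratio is higher in both siPRR11 libraries in every panel, with means of 1.21 and 2.66 for COL4A2 to COL4A1, 0.656 and 1.27 for COL4A3 to COL4A4 and 5.90 and 8.61 for COL4A5 to COL4A6.

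The summed RPKM of the family was 802.9 and 746.5 in siNC and 524 and 525.7 in siPRR11 libraries. COL4A1 made up 46.6% and 43.5% of it in siNC and 29.2% and 25.4% in siPRR11 libraries. Of the summed RPKM of the 4 scarce chains, COL4A5 made up 44.2% and 47.0% in siNC and 63.0% and 63.2% in siPRR11 libraries. In siPRR11 cells the order of levels was COL4A2, COL4A1, COL4A5, COL4A3, COL4A4 and COL4A6, again with no overlap between neighbours, though COL4A3 stood only 1.25-fold above COL4A4.

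By the distance between log2 CPM values centred over the 4 libraries, the 5 genes most like COL4A1 among 14187 others whose average log2 CPM was 1 or more were CLIP2, FAM107B, RRM1-AS1, NEFL and RRM1. Their log2 fold changes were -1.29, -1.36, -1.42, -1.35 and -1.35, at distances between 0.118 and 0.148. Genes chosen by this distance have fold changes near that of COL4A1 by construction. COL4A4 was at a distance of 0.397 and COL4A2 at 1.16. RRM1 and RRM1-AS1 overlap on opposite strands, and their reads cannot be told apart if strand was not used.

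Of the other collagen genes, 27 of 37 could be tested. Lower levels were called for 7 (COL25A1, COL13A1, COL9A2, COL5A1, COL8A1, COL6A2 and COL6A1) and higher levels for 2 (COL1A1 and COL24A1), with a median log2 fold change of -0.21. Called genes were 33.3% of the 27, while 9.14% of all genes tested were called lower and 7.61% higher. COL13A1, a transmembrane collagen, fell by 1.48 on the log2 scale (SE 0.148, edgeR adjusted p = 8.02e-05), from 7.13 and 8.80 to 2.92 and 2.78 CPM. COL1A1, a chain of the fibrillar collagen of bone and skin, rose by 0.90 (SE 0.111, edgeR adjusted p = 0.000329), from 49.5 and 43.0 to 96.2 and 76.0 CPM. COL5A1 fell by 0.68 (edgeR adjusted p = 0.00269) and did not pass with limma on RPKM. Without siPRR11 library 2, 4 of the 27 genes were called lower and 1 higher, and with either limma fit 2 and 1.

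Genes of the wider pathway were taken from 6 lists drawn up by function. A shared synonym put MME, a different gene, in place of MMP12, so that MME is among the genes counted below. Of their 104 genes tested, 18 were called lower and 13 higher (edgeR quasi-likelihood, Benjamini-Hochberg adjusted p under 0.05 over all genes tested), and the median log2 fold change was -0.10. Called genes were thus 29.8% of those listed, against 16.7% of all genes tested, with shares between 18.8% for the TGF-beta genes and 50% for the receptors, and nothing particular to a list is read from these shares. When libraries were scaled by their totals alone, the split was 13 lower and 17 higher. The direction of the balance thus depended on the scaling.

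Of 25 tested genes that fold, modify and secrete collagen chains, 2 fell, 3 rose and 20 did not pass, with a median log2 fold change of -0.11. The share called, 20%, was near that of all genes tested, and without siNC library 2 the number called lower was 8. SERPINH1, which encodes the collagen chaperone HSP47, was at 72.0 and 64.0 CPM in siNC and at 69.6 and 62.8 CPM in siPRR11 libraries (edgeR adjusted p = 0.808). P4HB, the shared subunit of prolyl 4-hydroxylase, had a log2 fold change of -0.16 (edgeR adjusted p = 0.204) and its catalytic partner P4HA1 one of -0.11 (edgeR adjusted p = 0.666). PLOD1, a lysyl hydroxylase, had one of -0.25 (edgeR adjusted p = 0.0849). P4HB and PLOD1 passed with the replicate block. P4HA3, another catalytic subunit of prolyl 4-hydroxylase, rose by 0.61 (SE 0.0845, edgeR adjusted p = 0.000659), from 244.8 and 208 to 343.7 and 347.4 CPM. P3H4, a partner of lysyl hydroxylase, fell by 0.69 (SE 0.0969, edgeR adjusted p = 0.000675), from 20.5 and 22.3 to 12.96 and 13.45 CPM. MIA2, of the machinery that exports collagen, rose by 0.55 and did not pass with either limma fit. Of its exonic bases, 63.7% are shared with another gene read in the same direction, so its value is uncertain. P4HB, P4HA1 and PLOD1 passed without siNC library 2, and MIA2 did not pass without siPRR11 library 1.

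Of the 7 enzymes that cross-link the network, PXDN rose, TGM2 fell and 5 did not pass. PXDN encodes peroxidasin, which forms the sulfilimine bonds between type IV collagen trimers. It was at 162.9 and 169.5 CPM in siNC and at 207.8 and 212 CPM in siPRR11 libraries, a log2 fold change of 0.34 (SE 0.0709, edgeR adjusted p = 0.00738). It lay above the control in both siPRR11 libraries, opposite to the collagen chains. TGM2, a transglutaminase, fell by 0.33 (edgeR adjusted p = 0.0160). LOXL2, a lysyl oxidase that acts on type IV collagen, had a log2 fold change of -0.01 (edgeR adjusted p = 0.922), and its sign changed with the scaling. PXDN did not pass without siPRR11 library 2, nor TGM2 without either siPRR11 library or with limma, and without siNC library 1 the number called higher was 3.

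Among 28 tested partners in the basement membrane, 5 fell, 4 rose and 19 did not pass, with a median log2 fold change of -0.07. The laminin chains LAMB1 and LAMC1 were abundant. LAMB1 fell by 0.27 (edgeR adjusted p = 0.0216), from 969.1 and 985.6 to 829 and 795.3 CPM. It did not pass with library totals alone or with either limma fit. LAMC1 was at 868.9 and 862.5 CPM in siNC and at 957.2 and 908.9 CPM in siPRR11 libraries (edgeR adjusted p = 0.335). HSPG2, which encodes the proteoglycan perlecan, rose by 0.32 (SE 0.0715, edgeR adjusted p = 0.0108), although genes of the other strand cover 11.99% of its exonic bases. NID1, whose product nidogen links laminin to type IV collagen, passed only with the replicate block. It had a log2 fold change of 0.17 (edgeR adjusted p = 0.14). SPARC, which binds collagen, had one of 0.03 (edgeR adjusted p = 0.835). NTN4, a laminin-related netrin, rose by 0.77 (SE 0.0835, edgeR adjusted p = 0.000146). NPNT, the integrin ligand nephronectin, fell by 0.46 and LAMB3 by 0.38 (edgeR adjusted p = 0.00216 and 0.0192). LAMB3 did not pass with either limma fit. Perlecan and laminin genes that passed thus moved in both directions beside the lower level of COL4A1. LAMB1 did not pass without either siPRR11 library, and HSPG2 and LAMB3 did not pass without siPRR11 library 1. In the list, 3 genes were called lower and 1 higher without that library, 3 lower with library totals, and 1 lower and 2 higher with either limma fit.

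Of 12 tested genes of receptors that bind type IV collagen or its fragments, 3 fell, 3 rose and 6 did not pass. The number called higher was 1 without siPRR11 library 1, and the number called lower was 1 with either limma fit, where ITGB1 and ITGB5 did not pass. ITGB1, the beta subunit shared by the collagen-binding integrins, fell by 0.34 (SE 0.0709, edgeR adjusted p = 0.0066), from 1382 and 1455 to 1100 and 1137 CPM. Its partner ITGA1, whose integrin favours type IV collagen, rose by 0.46 (SE 0.0773, edgeR adjusted p = 0.00197), from 57.0 and 59.2 to 82.7 and 77.5 CPM. ITGB3 and ITGB5, partners of the integrin alpha V, fell by 1.04 and 0.48 (edgeR adjusted p = 0.000805 and 0.0173), and 51.6% of the exonic bases of ITGB3 are shared with a gene read in the same direction. DDR1, a receptor tyrosine kinase for collagens, was at 39.4 and 35.2 CPM in siNC and at 46.18 and 43.99 CPM in siPRR11 libraries (edgeR adjusted p = 0.0520), just short of passing. It passed with library totals, DESeq2, the exact test of edgeR, no filter, a minimum of 10 counts per library and the replicate block, and without siNC library 1.

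Of 16 tested genes in the list of proteases and inhibitors, 5 fell, 1 rose and 10 did not pass, with a median log2 fold change of -0.29. These counts and the median include MME, a different gene that stood in for MMP12. MME had a log2 fold change of 0.53 and did not pass, and MMP12 itself was not examined. With either limma fit 2 were called lower, and TIMP2, the gene that rose, did not pass without either siPRR11 library. CTSL, the lysosomal protease cathepsin L, fell by 0.64 (SE 0.0718, edgeR adjusted p = 0.00018), from 247.3 and 237.8 to 152.8 and 159.2 CPM. MMP15, a membrane-bound matrix metalloproteinase, fell by 0.62 (edgeR adjusted p = 0.00722) and did not pass with limma on RPKM. MMP2, a gelatinase that digests type IV collagen, was at 0.171 CPM or less in every library and could not be tested. TGF-beta signalling, which raises matrix transcription in many cells, was covered by 16 genes, of which 2 fell, 1 rose and 13 did not pass. TGFB1 had a log2 fold change of -0.02 (edgeR adjusted p = 0.894), with a sign that changed with the scaling. SMAD3 had one of -0.22 (edgeR adjusted p = 0.0724), and passed with no filter and with the replicate block. CTGF, a target of this pathway, rose by 0.41 (edgeR adjusted p = 0.0108), while TGFBR1 and SMAD6 fell by 0.36 and 0.33 (edgeR adjusted p = 0.0335 and 0.0414). TGFBR1 and SMAD6 did not pass with library totals alone, with either limma fit, without siNC library 2 or without either siPRR11 library. SMAD3 passed without siNC library 1, where 5 genes of the list were called lower, and CTGF did not pass with limma on log2(RPKM + 1).

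**Figure D5:**
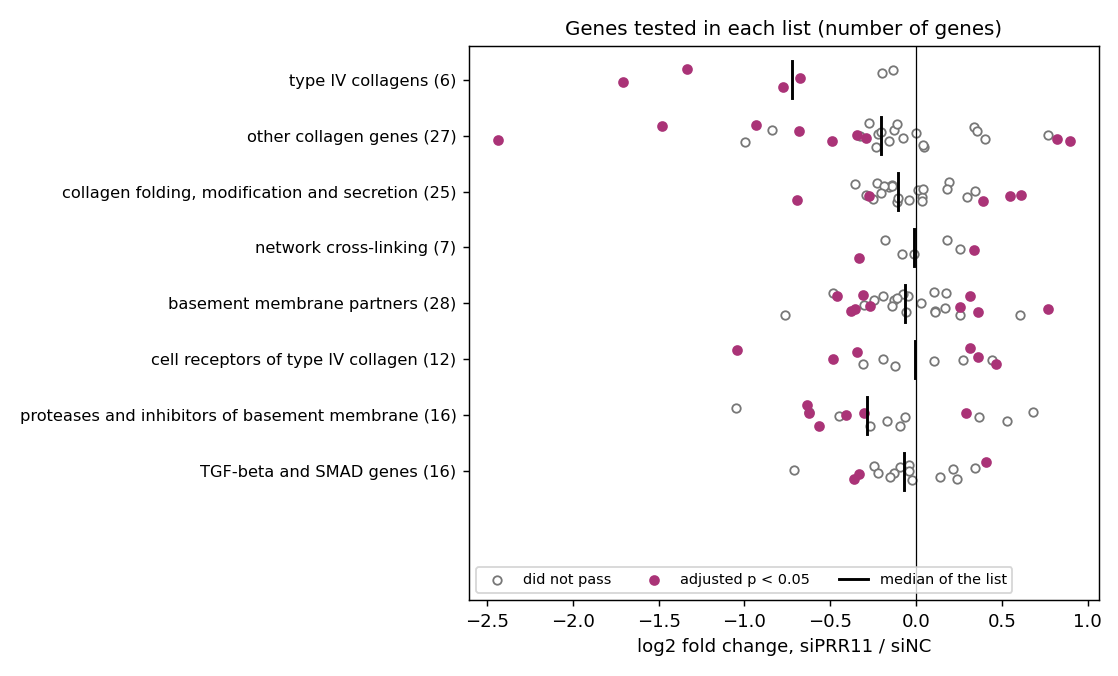
log2 fold change of siPRR11 over siNC for each gene tested, by list, with filled points for an adjusted p-value under 0.05 (edgeR), open points for the rest and a line at the median of each list. The type IV collagens have a median of -0.73 and no gene above 0, while the other lists hold genes on both sides of 0; the type IV collagens were chosen with these values in view.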

How the data were processed

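RNA-seq was performed on ACHN cells with siNC or siPRR11 (2 libraries each). According to the methods and the submitters' processing notes, reads of stranded libraries were trimmed (Trimmomatic 0.36), aligned to GRCh38 with STAR and counted with featureCounts (Subread 1.5.1). The authors deposited raw counts per gene, and RPKM values that equal count over exonic length and column total to within 9.67e-05%. The exonic length is in the deposited tables. The annotation release and the strand setting are not given in the sources used here.

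Counts were tested with edgeR 4.0.16 (R 4.3.3): quasi-likelihood test, TMM, filterByExpr (21630 of 36359 genes, 14729 left out), condition as the only term, Benjamini-Hochberg adjustment and a threshold of 0.05. The standard error is the log2 fold change over the square root of F. The fits were run on simulated counts with the same spread for all genes and large changes in well-counted genes. Genes with few counts were not covered, nor were changes as small as many given here. Alternatives were RLE or library totals, DESeq2 1.42.0, the exact test of edgeR, no filter, a minimum of 10 counts per library, a replicate block, limma 3.58.1 with a trend on log2(RPKM + 1) or log2(RPKM + 0.1), and each library left out. The members, lists and tests were chosen with earlier results of these data known. Besides the 6 members and PRR11, genes named were 16 fixed by function and, per list, the up to 3 past the threshold with the largest change (average log2 CPM 1 or more). The count of seed matches and the set of abundant genes were added after values had been seen. Older gene symbols were matched through RefSeq synonyms, which put MME, a different gene, in place of MMP12. MMP12 and FREM1 were not analysed here. Protein sequences were not used here. One gene named by this rule and one marker are not reported here.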

Additional observations from a re-analysis of the deposited data

How the results depend on the processing

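All 6 type IV collagen genes kept a negative log2 fold change in every alternative run. COL4A1, COL4A2, COL4A3, COL4A4, COL4A5 and COL4A6 lay between -1.44 and -1.23, -0.24 and -0.15, -0.82 and -0.74, -1.88 and -1.56, -0.17 and -0.11, and -0.76 and -0.59 with each library left out. Those fits leave 1 library in a group, which is assumed to vary like the other group. Of the 6, 4 were called lower, between 3 and 4 with each library left out, 3 with limma on log2(RPKM + 1), 2 with limma on log2(RPKM + 0.1), and 5, COL4A2 included, without a filter and with the replicate block. COL4A6 was the gene lost without siPRR11 library 1. None was called higher in any of these fits. On the log2(RPKM + 1) scale the scarce chains change less by construction: COL4A4 stood at -0.83 there.

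For the pathway genes, 18 called lower became 31 with the replicate block and 5 with either limma fit, and 13 called higher became 23 with the block and 8 with limma on log2(RPKM + 1). With each library left out they were between 12 and 23 lower and between 6 and 19 higher, the 12 and the 6 both without siPRR11 library 1. Of all collagen genes, members included, 11 were called lower and 2 higher, with 5 and 1 by limma on log2(RPKM + 1), 4 and 1 by limma on log2(RPKM + 0.1), between 8 and 13 and between 1 and 3 with each library left out (8 and 1 without siPRR11 library 2), and 16 and 3 with the block. The causes were not tested. The labels number the replicates alike but give no shared culture or day, and deviations of same-numbered libraries correlate at 0.165, a value that is the same for both numbers when groups hold 2 libraries, so the pairing is not taken as real. Scaling RPKM by the TMM factors moved COL4A2 in siNC to 426.2 RPKM.

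Signs of values near 0 reversed. With library totals, limma on log2(RPKM + 1) and limma on log2(RPKM + 0.1), SERPINH1 was at 0.0086, 0.0089 and 0.0095, LOXL2 at 0.0329, 0.0319 and 0.0323, and TGFB1 at 0.024, 0.0275 and 0.029. With each library left out they lay between -0.125 and 0.046, -0.0656 and 0.0361, and -0.1331 and 0.0893, P4HA1 between -0.3825 and 0.2208, and SPARC between -0.0418 and 0.0962. PRR11 stayed between -1.54 and -1.41 with each library left out. Changes smaller than the spread of 2 libraries could not be resolved.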
